A study of Mus musculus with 14 samples.

Results

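The miR-297, miR-466, miR-467 and miR-669 families were examined in plasma extracellular vesicles (EVs) of mice after whole-body irradiation (WBIR). Their probes were taken by name, as every probe of a mouse miRNA panel whose name started with 1 of these 4 names, and 33 of the 599 miRNA probes of the panel met this rule. There were 3 probes for miR-297, 12 for miR-466, 7 for miR-467 and 9 for miR-669, and 2 probes whose joined names span families, since 1 probe cannot separate their targets. The samples were 4 from sham mice, 5 from mice given 2 Gy and 5 from mice given 9 Gy, with EVs collected 3 days after exposure. Per the methods, the mice were female C57BL/6J, 6 to 8 weeks old, with no allele or transgene named for any group, and the radiation came from a cesium irradiator. EVs were pelleted from cleared plasma by centrifugation, and their RNA was read on the NanoString nCounter, which ligates each miRNA to a tag and counts barcoded probes without sequencing. Neither the labels nor the methods state whether each sample was 1 mouse or a pool, so the errors and p-values measure the spread between these samples. Per the methods a fixed amount of RNA was loaded, so a count reflects a miRNA's part of that RNA, and for every probe fewer EVs that carry it and less of it per EV cannot be told apart.

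These families are known from rodents. Most of their genes lie in a large cluster inside an intron of Sfmbt2, a Polycomb group gene that is imprinted and expressed from the paternal allele, and the cluster is best known for its expression in the placenta. Their hairpins arose by repeated duplication and many mature sequences carry runs of alternating bases, so family members resemble each other closely. The RefSeq gene table (assembly GRCm38.p6) placed 72 miRNA genes within Sfmbt2 on chromosome 2, and 71 of them carried 1 of the 4 family names. The member probes named 56 of these 72 genes. Of the 33 probes, 25 named genes within Sfmbt2 only and 3 named genes both within and outside it. The other 5 (miR-466i, miR-466j, miR-466k, miR-467f and miR-467g) named genes elsewhere only. No other miRNA of the panel had its gene within Sfmbt2. A probe is not always a single gene, since miR-467a matched 10 gene copies and miR-669a matched 12. For the probes that join miR-466a-3p with miR-466b-3-3p and miR-466a-5p with miR-466e-5p, only miR-466b-3 and miR-466e matched a gene.

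The sequences below show the repeats that members carry. They are the 5 members, of 39 mature names, that had an entry under the same name in the RefSeq table of mature miRNAs (GRCm38.p6). All 5 come from genes outside Sfmbt2, so neither a gene of the cluster nor a member that passed a test below is among them. They are written 5′ to 3′ with the seed, bases 2 to 8, in capitals.
miR-466j: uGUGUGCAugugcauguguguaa
miR-466k: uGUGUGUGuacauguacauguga
miR-467f: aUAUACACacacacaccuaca
miR-467g: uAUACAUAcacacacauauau
miR-467h: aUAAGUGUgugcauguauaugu

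Their positions are chr10:60960802-60960824 (plus strand) for miR-466j, chr3:85467396-85467418 (plus) for miR-466k, chr11:69635419-69635439 (minus) for miR-467f, chr5:34732872-34732892 (minus) for miR-467g and chr9:115381898-115381919 (plus) for miR-467h. The motif UGUGUG was present in miR-466j, miR-466k and miR-467h, and its complement read in reverse, CACACA, was present in miR-467f and miR-467g, each searched on the mature strand alone. Among the 1679 mature miRNAs of the table, UGUGUG was present in 1.67% and CACACA in 0.715%. Despite the shared repeat, no seed was common to any of these members. Only miR-466k and the joined probe that includes miR-467h had enough counts to be tested below.

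Most of these probes counted few molecules. The panel has 8 negative control probes (NEG), which have no target in the sample and measure background. Their median was 8.0 ± 1.22, 7.60 ± 0.652 and 7.40 ± 1.64 counts for sham, 2 Gy and 9 Gy samples in turn (SD, n = 4, 5 and 5). 1 of them, NEG_C, was far higher than the rest, with means of 48.0, 49.2 and 60.6 counts. On average, 20.3 of the 33 members were above the sample's median NEG count in sham, 19.2 at 2 Gy and 22.6 at 9 Gy, that is 61.4%, 58.2% and 68.5%. The other miRNA probes were above it in 40.2%, 36.5% and 51.4%. Against the highest NEG count without NEG_C, 8.75 ± 1.26, 11.8 ± 1.64 and 13 ± 4.18 members were above for sham, 2 Gy and 9 Gy samples in turn (SD, n = 4, 5 and 5), that is 26.5%, 35.8% and 39.4%, and of the other miRNA probes 11.5%, 20.1% and 19.3% were above. This limit itself differed between the groups, with means of 13.5, 10.6 and 13.6 counts, so the numbers above it do not compare levels between groups.

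Only miR-467a, miR-467b and miR-467e were above this stricter limit in all 14 samples. miR-297c and miR-466d-3p were above it in all 10 irradiated samples and in no sham sample, although for miR-466d-3p a count of 10 was above the limit of its 2 Gy sample (9) and below that of its sham sample (16). There were 7 members that never passed it, namely both arms of miR-297b, miR-466c-5p, miR-466f-5p, miR-466h, miR-466l and miR-467g. Against the mean plus 2 SD of all 8 NEG probes, with NEG_C included, an average of only 0.250 members passed in sham, 0.8 at 2 Gy and 1.00 at 9 Gy. Leaving out miR-297c, the variance of a member's counts between samples of a group averaged 1.09 times its mean in sham, 1.01 times at 2 Gy and 1.27 times at 9 Gy, where counting error alone gives 1.

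**Figure D1:**
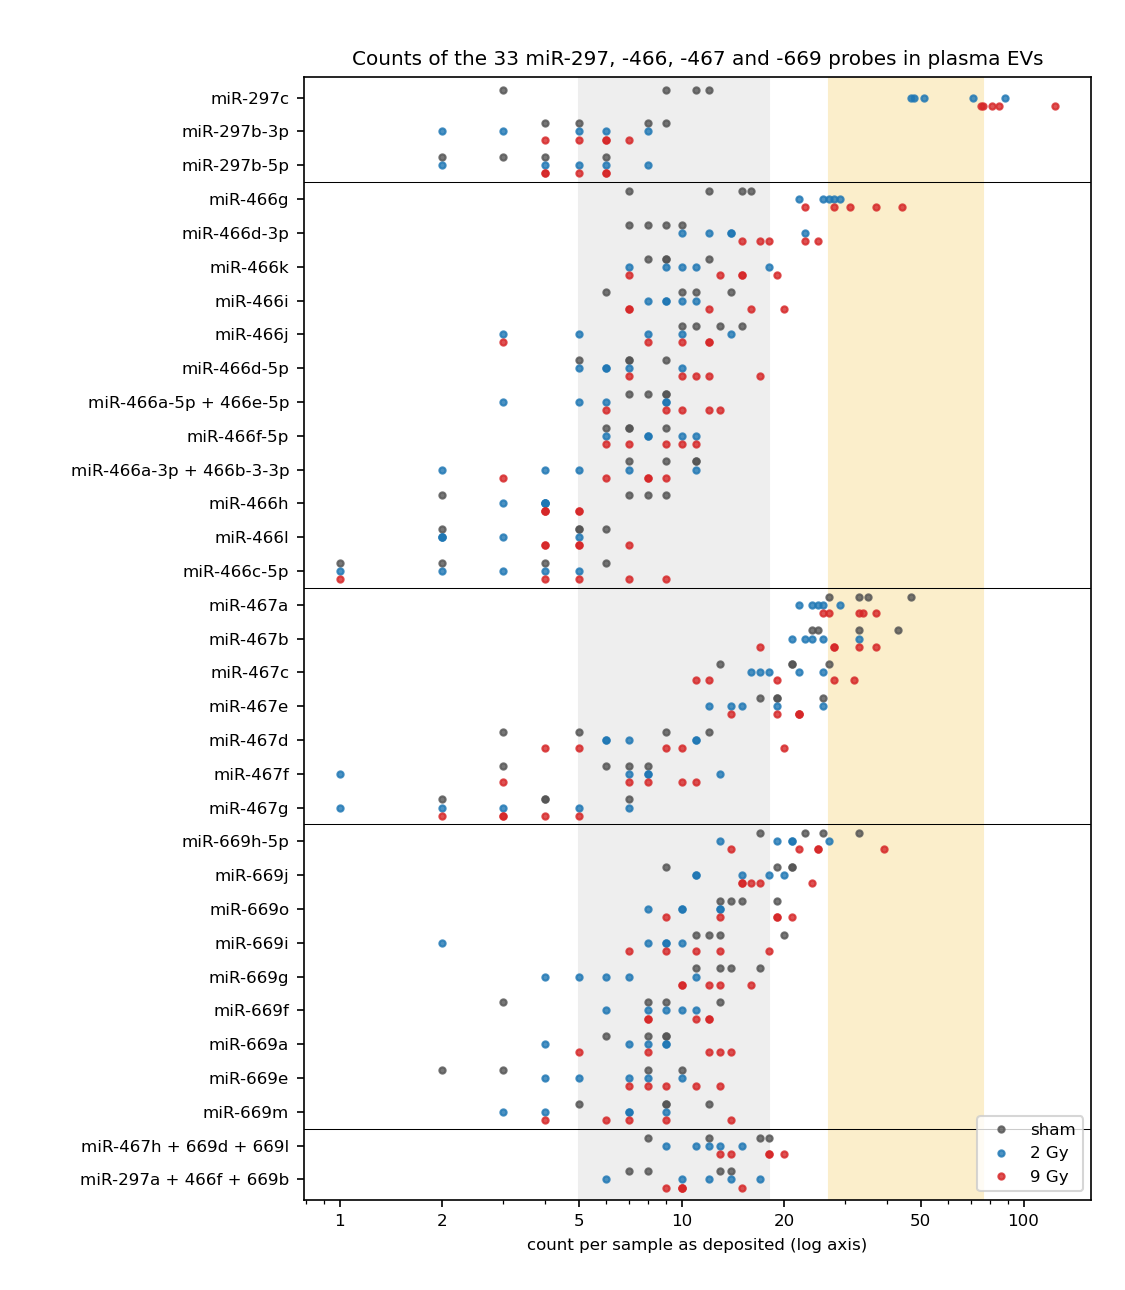
Counts as deposited of all 33 member probes in each sample, on a log axis, by family and in order of their mean within a family, with 1 point per sample for sham (grey), 2 Gy (blue) and 9 Gy (red). The grey band runs from the lowest median of the negative controls in any sample to their highest count without NEG_C, and the yellow band is the range of NEG_C; miR-297c has the widest gap between irradiated samples (47 to 124) and sham samples (3 to 12).

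Of the 33 members, 16 had a mean of at least 10 counts over the samples and were tested, as part of a fit of 176 probes. They were 1 probe of miR-297, 4 of miR-466, 4 of miR-467, 5 of miR-669 and both joined probes. A low probe can pass this filter through the groups in which it is high, and miR-297c, miR-466d-3p and miR-466k passed with sham means below 10, while miR-466i, miR-669g and miR-669i passed with 2 Gy means below 10. The 17 members below it had group means of 3.25 to 12.3 counts in sham, 2.80 to 8.80 at 2 Gy and 3.40 to 11.4 at 9 Gy, close to the median NEG counts.

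At 2 Gy against sham, 4 of the 16 members passed an adjusted p of 0.05 in the edgeR fit, which was 14.8% over all probes tested. miR-297c, miR-466g and miR-466d-3p rose (13.1% of all probes rose) and miR-669g fell (1.7% fell). At 9 Gy against sham, 3 of the 16 passed, with a background of 17.0%, and they were again miR-297c, miR-466g and miR-466d-3p, all of which rose (15.9% of all probes rose and 1.14% fell). At an unadjusted p under 0.05 there were 5 members at 2 Gy, with miR-669i added (19.9% of all probes), and the same 3 at 9 Gy (25% of all probes). Both comparisons share the sham samples. These counts amount to 25% and 18.8% of the 16 members, where 1 member is a step of 6.25%, and neither share was tested against the background. The median log2 fold change of the 16 was -0.06 at 2 Gy and -0.17 at 9 Gy, beside 0.05 and 0.01 over all 176 probes. Leaving aside the 3 members that rose at both doses, called the risers below, the fitted changes of the 13 other tested members lay between -0.91 and 0.34 at 2 Gy and between -0.46 and 0.34 at 9 Gy.

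miR-297c showed the largest change of the members tested. It had 11, 12, 9 and 3 counts in the 4 sham samples. At 2 Gy it had 88, 71, 47, 51 and 48 counts, and at 9 Gy it had 85, 75, 81, 76 and 124. The lowest irradiated sample was thus well above the highest sham sample, and the sham samples lay at the level of the NEG probes. The means were 8.75 ± 4.03 (SD, n = 4), 61.0 ± 18.0 (SD, n = 5) and 88.2 ± 20.4 (SD, n = 5) counts, so that the mean count was 6.97 times sham at 2 Gy and 10.1 times sham at 9 Gy. In the edgeR fit the log2 fold change was 2.95 ± 0.26 (SE, adjusted p = 2.36e-15) at 2 Gy and 3.14 ± 0.26 (SE, adjusted p = 7.47e-17) at 9 Gy. After subtraction of the sample's median NEG count, 0.750 counts remained in sham, 53.4 at 2 Gy and 80.8 at 9 Gy, so that the fold change rests on a sham value at background. Scaling to the ligation controls, described below, ended both calls and gave a log2 fold change of -0.22 at 2 Gy, and the same controls as a covariate ended both as well. Both arms of its relative miR-297b stayed at background, with means between 3.75 and 6.50 counts in every group.

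In the miR-466 family, miR-466g and miR-466d-3p rose. miR-466g had 15, 12, 16 and 7 counts in sham, 26, 28, 27, 22 and 29 at 2 Gy, and 37, 31, 28, 23 and 44 at 9 Gy. No irradiated sample reached down to the sham samples. Of the 16 members, miR-297c and miR-466g alone were wholly above sham at 2 Gy (9.66% of all probes were), and with miR-466d-3p they were 3 at 9 Gy (15.3%). Its means were 12.5 ± 4.04 (SD, n = 4), 26.4 ± 2.70 (SD, n = 5) and 32.6 ± 8.14 (SD, n = 5) counts, and the edgeR log2 fold change was 1.22 ± 0.25 (SE, adjusted p = 1.24e-04) at 2 Gy and 1.19 ± 0.25 (SE, adjusted p = 1.07e-04) at 9 Gy. With the median NEG count subtracted and values under 1 set to 1, the log2 fold changes were 2.19 and 2.29. These calls depended on the scaling, as total count scaling ended them (log2 fold changes of 0.51 and 0.17) and scaling to the ligation controls described below turned them to -1.91 and -1.83.

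miR-466d-3p, the 3′ arm of its hairpin, had 9, 8, 10 and 7 counts in sham, 23, 14, 12, 10 and 14 at 2 Gy, and 17, 15, 23, 18 and 25 at 9 Gy. The lowest 2 Gy sample equalled the highest sham sample, whereas all 9 Gy samples were higher than sham. The sham samples were at background, with a mean of 0.5 counts above the median NEG count, against 7.0 at 2 Gy and 12.2 at 9 Gy. With that median subtracted, all its sham values came to the floor of 1. The size of the fitted log2 fold changes, 2.78 and 3.24, thus depends on that floor. As deposited, its means were 8.50 ± 1.29 (SD, n = 4), 14.6 ± 4.98 (SD, n = 5) and 19.6 ± 4.22 (SD, n = 5) counts, with an edgeR log2 fold change of 0.91 ± 0.26 (SE, adjusted p = 0.0135) at 2 Gy and 1.00 ± 0.25 (SE, adjusted p = 0.00184) at 9 Gy. The 2 Gy call was lost without 2 Gy replicate 1, the highest of its group (log2 fold change 0.71, adjusted p = 0.149), and without sham replicate 1 (0.85, adjusted p = 0.0610). It was also lost with DESeq2 (adjusted p = 0.138) and limma-voom (adjusted p = 0.0714). Total count scaling ended the calls at both doses (log2 fold changes of 0.19 and -0.028), and scaling to the ligation controls turned them to -2.30 and -2.04.

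The other arm, miR-466d-5p, comes from the same hairpin and counted 7.0 ± 1.63, 6.80 ± 1.92 and 11.4 ± 3.65 for sham, 2 Gy and 9 Gy samples in turn (SD, n = 4, 5 and 5). It was below the filter and was not tested. The other tested miR-466 probes were miR-466k and miR-466i, whose fitted changes were between 0.02 and 0.34 in both comparisons and did not pass. The summed counts of the 12 miR-466 probes were 99.3 ± 16, 107 ± 11.4 and 139 ± 18.4 for sham, 2 Gy and 9 Gy samples in turn (SD, n = 4, 5 and 5).

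The miR-467 family had the highest counts per probe in sham, with a mean of 17.9 counts against 6.33 for miR-297, 8.27 for miR-466 and 12.9 for miR-669. These are counts of different probes, which can differ in efficiency. None of its 4 tested members passed in either comparison with sham. Its highest probe, miR-467a, had 47, 35, 33 and 27 counts in sham, 24, 25, 26, 22 and 29 at 2 Gy, and 34, 26, 27, 33 and 37 at 9 Gy. The groups overlapped, with means of 35.5 ± 8.39 (SD, n = 4), 25.2 ± 2.59 (SD, n = 5) and 31.4 ± 4.72 (SD, n = 5) counts. The edgeR log2 fold change was -0.35 ± 0.21 (SE, adjusted p = 0.365) at 2 Gy and -0.36 ± 0.20 (SE, adjusted p = 0.301) at 9 Gy. With a filter of at least 30 counts, which left 17 probes, the 9 Gy difference of miR-467a passed (-0.36, edgeR adjusted p = 0.0409). In that fit 11 of the 17 probes were called at 9 Gy, 8 higher and 3 lower. Among the alternatives other than leaving out a sample, miR-467a was called lower in 2 at 2 Gy and in 3 at 9 Gy. Scaling to the ligation controls, described below, was among them at both doses. In every group the mean count of miR-467a was below that of NEG_C.

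**Figure D2:**
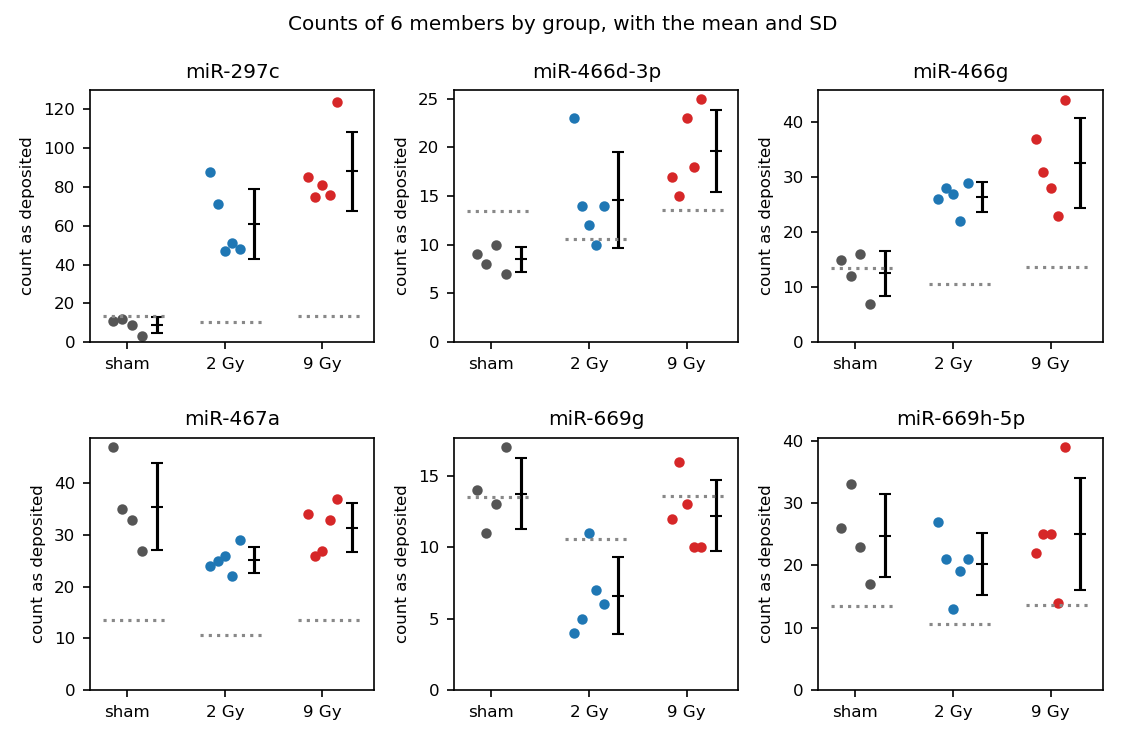
Counts as deposited in each sample (points) of the 4 members that passed in any comparison and of miR-467a and miR-669h-5p, the highest of their families, with the group mean and SD as black bars and the mean of the highest negative control without NEG_C as a dotted line, for sham (n = 4), 2 Gy (n = 5) and 9 Gy (n = 5). The miR-297c and miR-466g samples of both doses are all above sham, while the miR-467a and miR-669h-5p groups overlap.

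In the miR-669 family, 1 of 5 tested members fell at 2 Gy and none passed at 9 Gy. miR-669g had 14, 11, 13 and 17 counts in sham, 4, 5, 11, 7 and 6 at 2 Gy, and 12, 16, 13, 10 and 10 at 9 Gy. The lowest sham sample and the highest 2 Gy sample were equal, and the 9 Gy samples overlapped with sham. Its means were 13.8 ± 2.50 (SD, n = 4), 6.60 ± 2.70 (SD, n = 5) and 12.2 ± 2.49 (SD, n = 5) counts, and the 2 Gy mean was thus below the median NEG count. The edgeR log2 fold change was -0.91 ± 0.33 (SE, adjusted p = 0.0479) at 2 Gy and -0.37 ± 0.29 (SE, adjusted p = 0.521) at 9 Gy. Leaving out 1 sample ended the 2 Gy call in 8 of 14 fits, with the highest adjusted p, 0.288, without sham replicate 4 (log2 fold change -0.68), and the call did not pass with DESeq2 (adjusted p = 0.161) or limma-voom (adjusted p = 0.258), nor with edgeR on all probes unfiltered (adjusted p = 0.0867).

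The highest probe of the family, miR-669h-5p, had 26, 33, 23 and 17 counts in sham, 27, 21, 13, 19 and 21 at 2 Gy, and 22, 25, 25, 14 and 39 at 9 Gy. Its groups overlapped, and the edgeR log2 fold change was -0.15 ± 0.25 (SE, adjusted p = 0.897) at 2 Gy and -0.18 ± 0.24 (SE, adjusted p = 0.749) at 9 Gy. Fitted values of the 5 tested miR-669 members had medians of -0.36 and -0.19 and were all below 0, as were 76 of all 176 probes at 2 Gy and 88 at 9 Gy, in comparisons that share the sham samples. Scaled to the hybridisation controls, which moved the median of all probes to 0.22 at 9 Gy, 3 of the 5 were above 0 there. For miR-669i the 2 Gy counts (2 to 10) were all below the sham counts (11 to 20), which was the case for 2.27% of all probes, while at 9 Gy no member and 0.568% of all probes lay wholly below sham. Its fitted change of -0.74 at 2 Gy did not pass (adjusted p = 0.170). The 2 joined probes, miR-297a with miR-466f and miR-669b, and miR-467h with miR-669d and miR-669l, had fitted changes between -0.15 and 0.30 and did not pass.

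**Figure D3:**
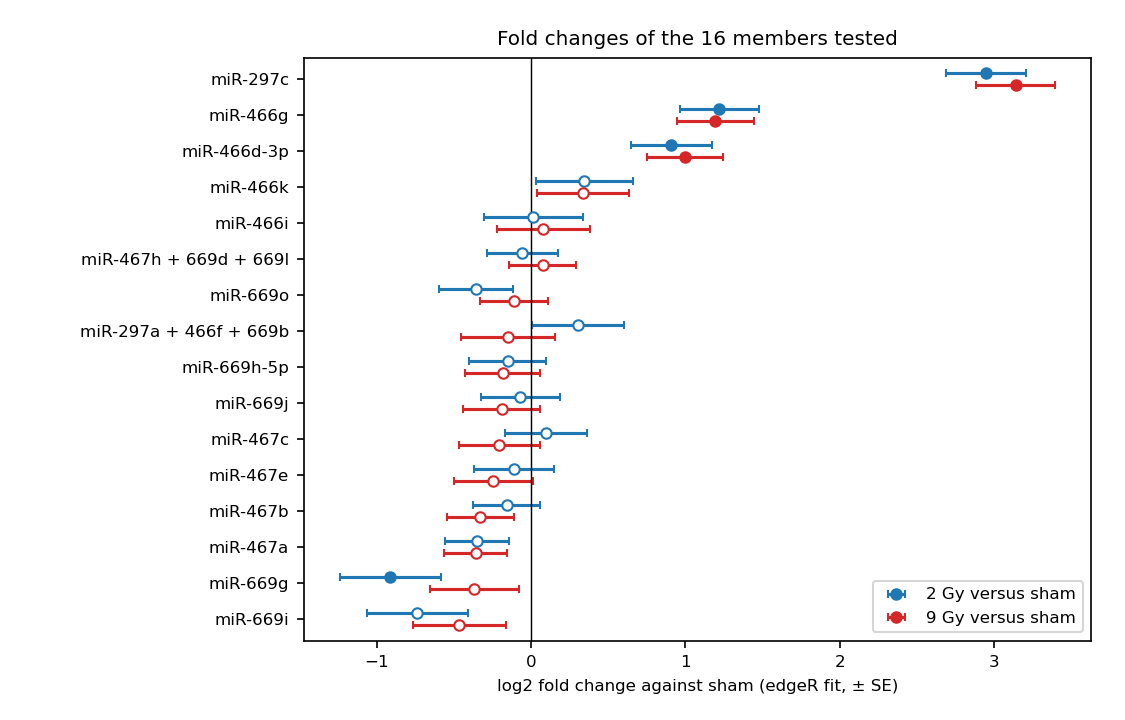
Log2 fold changes of the 16 tested members against sham in the edgeR fit, with bars for the SE, at 2 Gy (blue) and 9 Gy (red), where filled points had an adjusted p under 0.05. Filled points are miR-297c, miR-466g and miR-466d-3p at both doses and miR-669g at 2 Gy, and miR-669i, with open points at -0.74 and -0.46, did not pass.

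Between the doses, no member passed the test. In the edgeR fit of 9 Gy against 2 Gy, 0 of 16 members passed and 0 had an unadjusted p under 0.05. Of all probes, 0.0% passed in that fit and 11.4% had an unadjusted p under 0.05. DESeq2 and limma-voom each called 0 members, beside 1 of 599 and 1 of 176 probes. Counts at 9 Gy were wholly above those at 2 Gy for none of the 16 members, against 5.68% of all probes. The fitted changes of the members were between -0.46 and 0.55, with a smallest adjusted p of 0.538. For the risers the log2 difference of 9 Gy from 2 Gy was 0.19 ± 0.19 (SE) for miR-297c, 0.09 ± 0.20 for miR-466d-3p and -0.03 ± 0.21 for miR-466g. For miR-669g, called at 2 Gy and not at 9 Gy, it was 0.55 ± 0.32 (SE, adjusted p = 0.538), so that the doses were not shown to differ.

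As sums over a family, miR-297 had 19.0 ± 7.39, 70.8 ± 17.4 and 98.8 ± 21.2 counts for sham, 2 Gy and 9 Gy (SD, n = 4, 5 and 5), and most of the irradiated counts were miR-297c. The miR-467 sums were 125 ± 24.1 (SD, n = 4), 107 ± 8.64 (SD, n = 5) and 121 ± 19.1 (SD, n = 5). The miR-669 sums were 116 ± 10.2 (SD, n = 4), 89.2 ± 9.18 (SD, n = 5) and 121 ± 6.50 (SD, n = 5). All 33 members together made up 6.34%, 4.42% and 3.64% of all miRNA counts in these 3 groups, although their summed counts were 384, 397 and 507. The total over all miRNA probes was 4781 to 6926 counts for sham samples, 8019 to 10455 for 2 Gy samples and 11518 to 20150 for 9 Gy samples.

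The ligation positive controls (LIG_POS) moved with the groups. These 3 probes count added targets that must be ligated as the miRNAs are, and the geometric mean of their counts was 345 ± 223, 2332 ± 485 and 2650 ± 505 for sham, 2 Gy and 9 Gy samples in turn (SD, n = 4, 5 and 5). No sham sample exceeded 634 and no irradiated sample was below 1935. The ratio of the group geometric means was 7.88 at 2 Gy and 8.98 at 9 Gy against sham (p = 0.0159 in both cases by a two-sided exact permutation test, the smallest value this design gives). The hybridisation controls, which need no ligation, had ratios of 0.926 and 0.989 (exact permutation test, p = 0.317 and 0.825). The mean count of miR-297c, with background in both terms of the ratio, was 6.97 and 10.1 times sham. With the median NEG count subtracted and values under 1 set to 1, miR-297c had fitted log2 fold changes of 4.65 and 4.91, with some sham values at that floor. The ratio of its counts thus depends on the background and cannot be set against that of the ligation controls. For miR-466g the ratio of the mean counts, background included, was 2.11 and 2.61 times sham, for miR-466d-3p 1.72 and 2.31 times, and for miR-467a 0.71 and 0.885 times.

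When the counts were scaled to the ligation controls in place of TMM, the median log2 fold change of all 176 probes moved to -3.13 at 2 Gy and -3.05 at 9 Gy. On that scale miR-297c had a log2 fold change of -0.22 (adjusted p = 0.623) and 0.14 (adjusted p = 0.763), and the other 15 tested members were called lower in both comparisons, as were 167 of all 176 probes at 2 Gy and 165 at 9 Gy. With the log2 ligation control as a covariate, 0 of 16 members and 3 of all 176 probes passed in each comparison, and miR-297c had log2 fold changes of 1.34 ± 0.66 (SE, adjusted p = 0.914) and 1.43 ± 0.70 (SE, adjusted p = 0.850). In that fit the samples of sham and irradiated mice do not overlap in the covariate, so dose and ligation cannot be told apart for the risers. Subtracting the median NEG count left the same 3 members higher at both doses. Subtracting the mean plus 2 SD of the NEG probes without NEG_C left miR-297c and miR-466g, and miR-466d-3p no longer passed (edgeR adjusted p = 0.300 and 0.11). All sham counts of the 3 risers were below that limit and were set to 1. These calls thus compare irradiated samples with a fixed floor and cannot show how the rise stands up to background subtraction. With total count scaling, which moved the median of all probes to -0.66 and -1.02, miR-297c alone of the 16 members was called higher. Of all 176 probes, 12 were called higher at 2 Gy and 15 at 9 Gy on that scale. Neither miR-466g (edgeR adjusted p = 0.111 and 0.583) nor miR-466d-3p passed.

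Within the irradiated samples, miR-297c followed the ligation controls. With the mean of each dose removed, its log2 scaled count correlated with the log2 LIG_POS geometric mean over the 10 irradiated samples at r = 0.915 (permutation test within dose, p = 0.00024, adjusted p = 0.0182 over the 176 probes) and Spearman rho = 0.915 (permutation p = 0.00101, adjusted p = 0.0698). With the 2 most distant samples on the ligation axis left out r was 0.955. It was the single member of 16 to pass, where 1.7% of all probes did. At 2 Gy the highest miR-297c count, 88, was in the sample with the highest LIG_POS value, 3121, and at 9 Gy the count of 124 was in the sample with 3463.

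Correlations of the other risers did not pass the adjustment. miR-466d-3p had r = 0.736 (permutation p = 0.0267, adjusted p = 0.332), which fell to 0.491 when the 2 most distant samples on the ligation axis were left out and so rested in part on them, and rho = 0.624 (permutation p = 0.08, adjusted p = 0.671). miR-466g had r = 0.378 (permutation p = 0.308, adjusted p = 0.775) and rho = 0.248, and r was 0.599 with those 2 samples left out. Of the members that did not rise, miR-669g had r = -0.706 (permutation p = 0.0394, adjusted p = 0.385) and rho = -0.576, and miR-669h-5p had r = 0.659 (permutation p = 0.0488, adjusted p = 0.430) and rho = 0.733 (permutation p = 0.0293, adjusted p = 0.480). For miR-467a r was 0.104 (permutation p = 0.791, adjusted p = 0.989) and rho was 0.0667. With the 2 samples left out, r was -0.224 for miR-669g, 0.447 for miR-669h-5p and 0.571 for miR-467a, so that these values rested on few samples. On deposited counts in place of scaled counts, miR-297c again was the single member to pass (r = 0.965, permutation test, adjusted p = 0.0246, and 0.855 with the 2 samples left out), where 2 of all 176 probes did. With the 2 samples left out r on that scale was 0.112 for miR-466d-3p, 0.321 for miR-466g and 0.116 for miR-467a. The median r was -0.13 over the 16 members and 0.04 over all 176 probes.

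**Figure D4:**
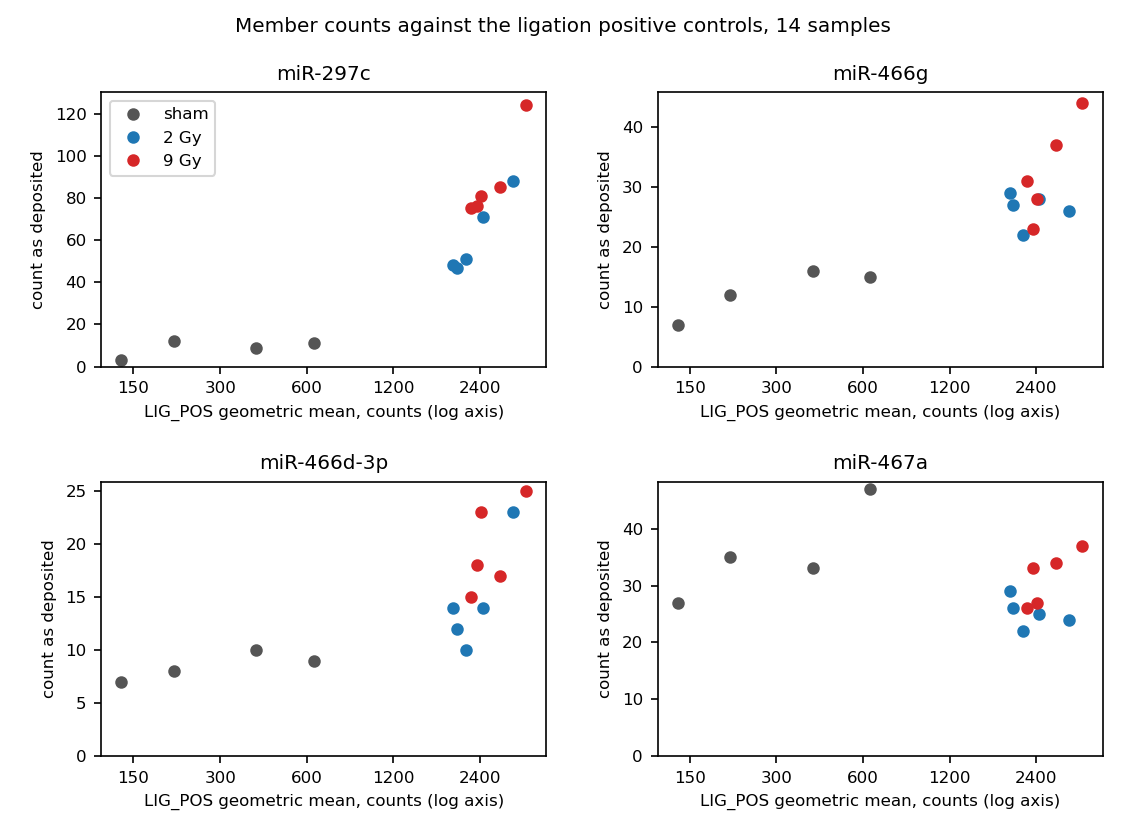
Counts as deposited of miR-297c, miR-466g, miR-466d-3p and miR-467a against the geometric mean of the 3 ligation positive controls (log axis), with 1 point per sample for sham (grey), 2 Gy (blue) and 9 Gy (red). Sham samples lie at 136 to 634 and irradiated samples at 1935 to 3463, with no overlap; within the irradiated samples miR-297c is higher where the ligation controls are higher (r = 0.965 for these counts on the log2 scale with dose means removed), and miR-467a is no lower in sham.

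The genes of the risers can be placed within the cluster. In the order of the 72 miRNA genes within Sfmbt2, counted from the lower coordinate, the gene of miR-297c was at place 57, that of miR-466d at 61 and that of miR-466g at 66. From place 55 to place 67 the other probes were miR-467d, miR-669a, both arms of miR-297b, miR-466d-5p, miR-669m, miR-669o and miR-466h, and their mean count ratios to sham were 0.585 to 1.33 at 2 Gy and 0.677 to 1.63 at 9 Gy. Of these, miR-669o alone had enough counts to be tested and did not pass. The gene of miR-669g, which fell at 2 Gy, was at place 20. Of the members with at least 1 gene within Sfmbt2, 14 were tested, among them both joined probes, which also name genes elsewhere, and their median log2 fold changes were -0.09 at 2 Gy and -0.19 at 9 Gy. Of the members with genes elsewhere only, miR-466k and miR-466i were tested, with medians of 0.18 and 0.21, and neither passed.

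**Figure D5:**
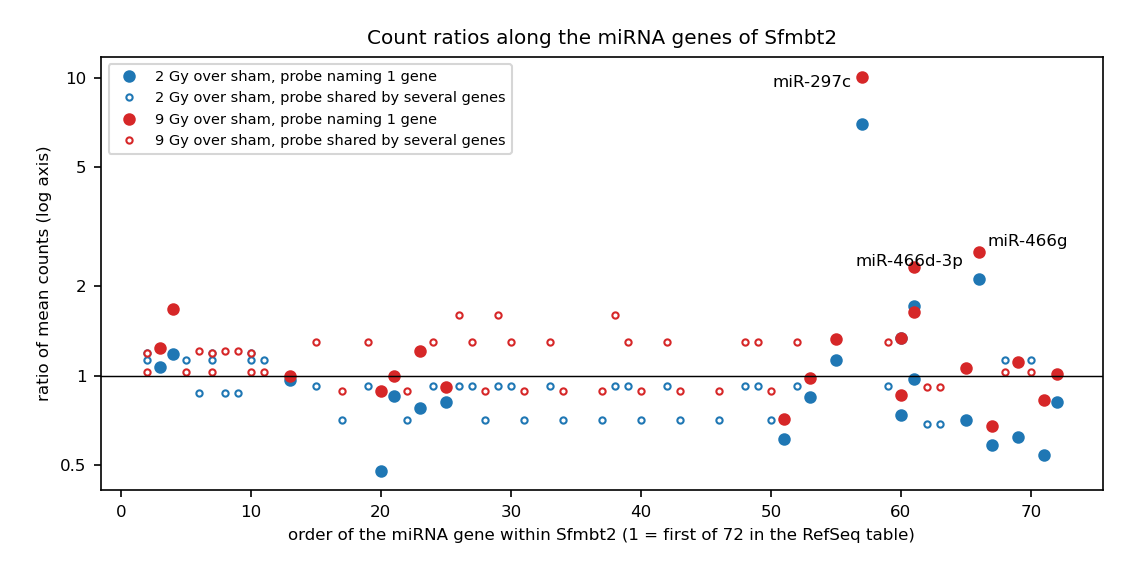
Ratio of mean counts at 2 Gy (blue) and 9 Gy (red) over sham (log axis) against the order of the miRNA gene within Sfmbt2, where filled points are probes matched to 1 gene and open points are probes shared by several genes, drawn at each of them. The ratios of miR-297c, miR-466d-3p and miR-466g stand above 1 at places 57, 61 and 66, and other members are above 1 as well at 9 Gy, up to 1.67 for miR-669e at place 4 and 1.63 for the other arm of miR-466d.

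As a second imprinted miRNA cluster, 67 probes had genes between Dlk1 and Dio3, and 22 of these were tested. In the edgeR fit 4 rose and 1 fell at 2 Gy, with a median log2 fold change of 0.02, and 4 rose and none fell at 9 Gy, with a median of 0.19. Over all probes 13.1% rose and 1.7% fell at 2 Gy, and 15.9% rose and 1.14% fell at 9 Gy. As a check of the sample type, miR-451, a red cell miRNA, and miR-142-5p, a leukocyte miRNA, were above the highest NEG count without NEG_C in all 14 samples, with means of 49.3 and 951 counts in sham, 130 and 565 at 2 Gy, and 70.0 and 646 at 9 Gy. The red cell miRNA miR-144, the platelet-rich miR-126-3p, the leukocyte miR-142-3p and the liver miR-122 were above it in at most 1 sample each, and miR-486, miR-223 and miR-150 in at most 5. The leukocyte miR-155 had means of 1.00 in sham and at 2 Gy and of 73.4 at 9 Gy, where 2 samples were above it. The part of blood cells in the member counts was not tested.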

How the data were processed

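Per the methods, the authors ran the nCounter mouse miRNA panel on EV RNA and normalised it with nSolver, the manufacturer's software. The deposited values are whole-number counts per probe, neither scaled nor background-subtracted, with a smallest value of 1, and no source used here says if zeros were set to 1. Probe names were kept as written. The 626 probes included 566 for mouse miRNAs and 33 for viral miRNAs, and these 599 made up the library size.

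TMM factors were computed over the 599 probes, and 176 with a mean of at least 10 counts were fitted with edgeR 4.0.16 (quasi-likelihood, robust, R 4.3.3) with all 3 groups in 1 fit. Tests were two-sided with Benjamini-Hochberg adjustment over the 176 probes and a threshold of 0.05. SEs come from the log2 fold change and its F statistic. The script was tested on simulated data. Controls used exact permutation tests (scipy 1.17.1), and correlations with the ligation controls used scaled counts (counts over the TMM library size) and 100000 permutations within dose. Total miRNA counts of 4781 to 20150 set the precision, which for most members was counting error near background.

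Given in full were members past the threshold in any comparison and the highest member of each family. The members and lists were chosen with earlier results of these data known. Alternatives were all probes unfiltered, a minimum mean of 30 counts, size factors from DESeq2, total count, hybridisation and ligation control scaling, background subtraction (median or mean plus 2 SD of the negative controls), ligation as a covariate, the replicate block, only the 2 groups compared, DESeq2 1.42.0, limma-voom (limma 3.58.1), and each sample left out. After background subtraction, values were rounded and those under 1 were set to 1. Over all 626 probes, control probes included, the counts of all 26 within-group pairs of samples differed by more than sampling noise. The miRNA probes alone were not tested in this way.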

Additional observations from a re-analysis of the deposited data

Results flagged for a closer look

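Dixon's test at the 95% level was applied to 30 groups of samples, of which chance marks about 1 in 20, and it marked 2, both from the same sample. The miR-297c count of 9 Gy replicate 5 was 124, above the 75 to 85 counts of the other 9 Gy samples. The summed miR-297 count of that sample was 136, above 84 to 94 in the others. This sample also had the highest ligation control of all samples, with a geometric mean of 3463, and the highest total miRNA count, 20150. Scaled to the TMM library size, its miR-297c count was 95.0, beside 64.8 to 88.9 in the other 9 Gy samples. The part of ligation and of the total in the count was not tested.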

How the results depend on the processing

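The number of members called at 2 Gy against sham (4) became 1 with a mean of at least 30 counts (2 members tested, 9 of 17 probes called), 11 with total count scaling (1 higher, 10 lower, where 12 of all 176 probes were higher and 94 lower), 15 with ligation scaling (all lower, as were 167 of the 176), 2 once the mean plus 2 SD of the negative controls without NEG_C was subtracted (13 of all 176 probes), 0 with ligation as a covariate (3 of 176), and 2 with both DESeq2 (19 of 227) and limma-voom (17 of 176). At 9 Gy against sham (3) it became 2 with a mean of at least 30 counts (miR-297c higher, miR-467a lower, where 11 of 17 probes were called, 8 higher and 3 lower), 2 with the mean plus 2 SD of the negative controls without NEG_C subtracted (22 of 176), 14 with total count scaling (1 higher, 13 lower, where 15 of the 176 probes were higher and 130 lower), 15 with ligation scaling (all lower, as were 165 of the 176) and 0 with ligation as a covariate (3 of 176). Total count scaling moved the median of all probes to -0.66 and -1.02, and scaling to the hybridisation controls moved it to 0.03 and 0.22. Leaving out each sample in turn gave 2 to 4 members called at 2 Gy, where 20 to 26 of all probes were called. The fits without 2 Gy replicate 1 or sham replicate 1 gave 2. At 9 Gy it gave 3 to 3 members (26 to 32 of all probes), and for 9 Gy against 2 Gy 0 to 0 (0 to 3 of all probes). These fits tested 160 to 182 probes. The correlation with the ligation controls passed for 1 member by r and for 0 by Spearman rho. The replicate number as a block gave 3 members at 2 Gy (24 of all 176 probes), 3 at 9 Gy (29 of 176) and 0 between doses (3 of 176). With this block miR-669g no longer passed (edgeR adjusted p = 0.0952). For same-numbered samples, r of their deviations ran from -0.08 to 0.18 over 13 pairs, and from -0.24 to 0.26 over 52 other pairs. Many of these probes lie near background, so this cannot show whether the numbers pair the samples.

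Log2 fold changes that reversed at 2 Gy against sham were, with ligation scaling, -0.22 for miR-297c, -2.30 for miR-466d-3p and -1.91 for miR-466g, and, with ligation as a covariate, 0.30 for miR-669g. At 9 Gy against sham they were -0.028 with total count and -2.04 with ligation scaling for miR-466d-3p, -1.83 with ligation scaling for miR-466g, 0.92 with the covariate for miR-669g, and 0.042 with hybridisation scaling and 0.0045 after subtraction of the mean plus 2 SD for miR-669h-5p. Between the doses, total count scaling gave -0.10 for miR-297c and -0.22 for miR-466d-3p, and miR-466g became 0.21 with hybridisation scaling, 0.075 with ligation scaling, 0.10 with the median and 0.077 with the mean plus 2 SD subtracted. Leaving out 1 sample turned miR-466d-3p to -0.00067 (without 2 Gy replicate 4) and miR-466g to 0.03, 0.01 and 0.083 (without 2 Gy replicate 2, 9 Gy replicate 3 and 9 Gy replicate 4), with ranges of -0.00067 to 0.29 and -0.15 to 0.083. The cause was not tested. Counts near background limit most members, and for miR-297c its sham counts.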
